A study of Nicotiana tabacum and Solanum tuberosum subsp. andigenum and Nicotiana sylvestris with 28 samples.

Results

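The first short day was examined in leaves of Nicotiana tabacum cv Hicks, a day-neutral tobacco that flowers at the same time in long and in short days. The 3 arrays of this comparison, of 28 in the series, were chosen by their titles. Each of them set RNA of plants that had 55 long days (LD) and then 1 short day (SD), in the Cy5 channel, against RNA of plants kept in LD for 56 days, in the Cy3 channel. LD had 16 h of light at 80 µE and SD had 8 h at 160 µE, both at 22 °C. By the study's methods all plants were harvested 14 h after the lights came on, which was 6 h after dusk in SD and 2 h before dusk in LD. The sample labels give 8 h after dusk for SD, and dusk itself for LD. The ratio of the channels therefore does not separate day length from irradiance, or from leaves in darkness against lit leaves. The groups set beside it are Hicks after 15 short days, the isogenic line MM, a tobacco with the Maryland Mammoth trait that flowers only in SD, after 1 short day, and wild-type potato (Solanum tuberosum subsp. andigena) after 1 short day, with 3 arrays each. For potato the methods name leaves and petioles, although they also state that only leaves were taken in all cases. The methods count the replicates as biological samples, and the labels do not say whether groups shared plants.

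Plants measure day length in their leaves. Phytochromes and the circadian clock set the expression of genes such as GIGANTEA and CONSTANS, and in species such as Arabidopsis thaliana these control a mobile signal that starts flowering at the shoot tip. Leaves also adjust photosynthesis, starch turnover and protective pigments to the daily amount of light, and many of their transcripts rise and fall between day and night.

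The arrays carry potato cDNA clones, each in a pair of spots, so that tobacco RNA was read through the sequences of a related species. A value is a log2 LD/SD ratio, in which a number below 0 means a higher signal in SD and a number above 0 a higher signal in LD, and a mean of 1 in size is a 2-fold difference. Nothing in the files tells whether Cy3 or Cy5 is on top of the ratio on the Hicks arrays. Cy3 over Cy5 is the likely direction, because the study describes LD/SD ratios and LD was in Cy3, and because F3H, GBSS and STUGE51 in potato then have the signs the study gives them, which makes the signs of these genes dependent on it. The table holds ratios and no intensities, so a leaf marker can show only a ratio and the labelled tissue could not be checked by level. The ratios were rounded to steps of 0.01 before the log was taken, which makes the strongest SD values coarse. A ratio of 0.06, or -4.06 on the log2 scale, stands for a range 0.24 wide.

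Of 32448 spots, 8110 had a value on all 3 Hicks arrays, and these formed the 4569 clones tested, 3541 from both spots and 1028 from 1. The arrays had values for 9209, 10325 and 12979 spots, and the correlation of the copies of a clone was between 0.819 and 0.885. Clone ratios of the 3 arrays correlated with each other at r of 0.563, 0.599 and 0.630. The groups used beside them were less even. The Hicks arrays after 15 days had r of 0.422, 0.494 and 0.0673, and in MM the array of replicate 2 correlated with the other 2 at -0.101 and -0.0356, whereas those 2 correlated at 0.690. Potato arrays had r between 0.624 and 0.817. A gene symbol was given for 552 of the tested clones, and for 101 clones of 60 genes it was more than a locus number. The other clones are given by the number of their first spot.

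After 1 short day 139 of 4569 clones (3.04%) differed between SD and LD by at least 2-fold. Signal was higher in SD for 53 of them (1.16% of those tested) and higher in LD for 86 (1.88%). The SD side held the larger differences, with a median of 2.58-fold and a maximum of 12.1-fold, against a median of 2.24-fold and a maximum of 4.02-fold on the LD side. Ratios of 4-fold or more were reached by 10 clones in SD and by 1 in LD. Each of the 139 had the same sign on 3 of 3 arrays, as had 53.3% of all clones tested. Without a limit on size, 1074 clones (23.5%) passed the test, 475 higher in SD (10.4%) and 599 higher in LD (13.1%). Just outside the size limit lay 110 passing clones between 0.8 and 1 in size, and just inside it 73 between 1 and 1.2. The test was limma's moderated test of the mean against 0, with p of at most 0.05 and a Benjamini-Hochberg adjusted p of at most 0.1. On the same values 1470 clones (32.2%) had an unadjusted p of at most 0.05. The methods' t-test, run against 0 on the same values, called 30 clones under a q-value and 2 after Benjamini-Hochberg adjustment.

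**Figure D1:**
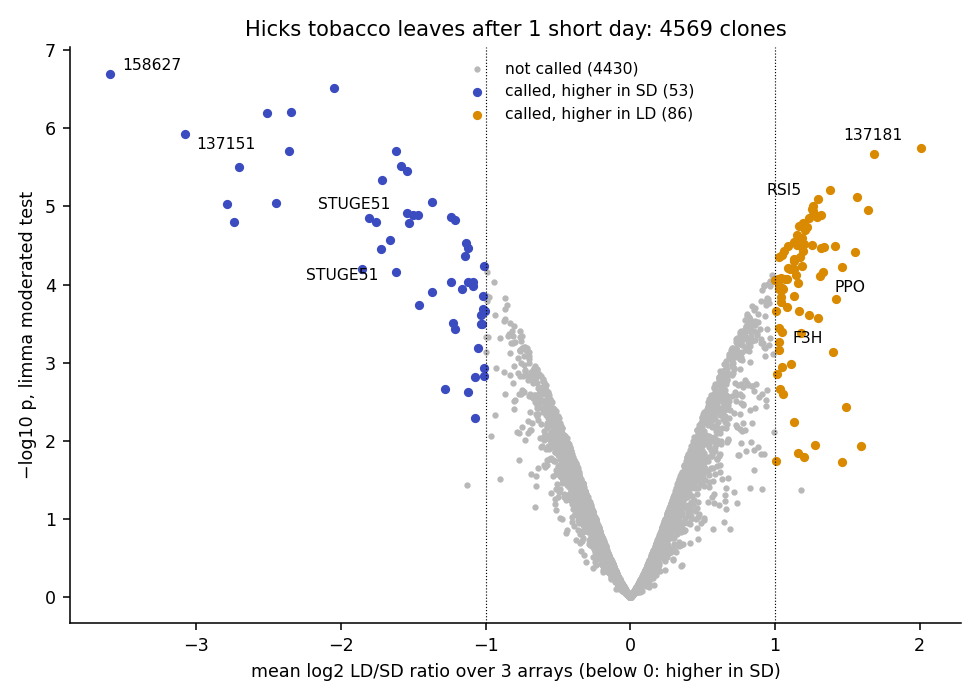
Mean log2 LD/SD ratio over the 3 Hicks arrays (x axis) against −log10 of limma's p (y axis) for the 4569 clones tested, with dotted lines at -1 and 1. The 53 clones called higher in SD reach a mean of -3.59, and the 86 called higher in LD reach 2.01.

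The dyes bear on the split between the sides. LD was in Cy3 on every Hicks array, so dye and day length cannot be told apart within these arrays. A dye term could be had for 4448 of the clones from 1 pair of potato arrays with exchanged dyes, as the deviation of each array of the pair from their mean. The arrays of the pair correlated at r of 0.784 although their dyes were exchanged. Their deposited ratios were therefore taken to run the same way by sample, not by dye. The dye term correlated with the Hicks means at r of 0.422 over the 4448 clones. The term had a median of 0.0205 in 47 SD-higher clones, of 0.472 in 83 LD-higher clones and of 0.00175 in all clones. It was above 0 in 26 of the 47, in 78 of the 83 and in 2242 of the 4448. With the term subtracted, 66 clones were called, 42 higher in SD and 24 higher in LD, and 54 of the 66 were among the 139. The split thus turned round, with more clones called on the SD side than on the LD side. The term comes from a single pair of arrays of another species, and its own error enters the subtraction.

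**Figure D2:**
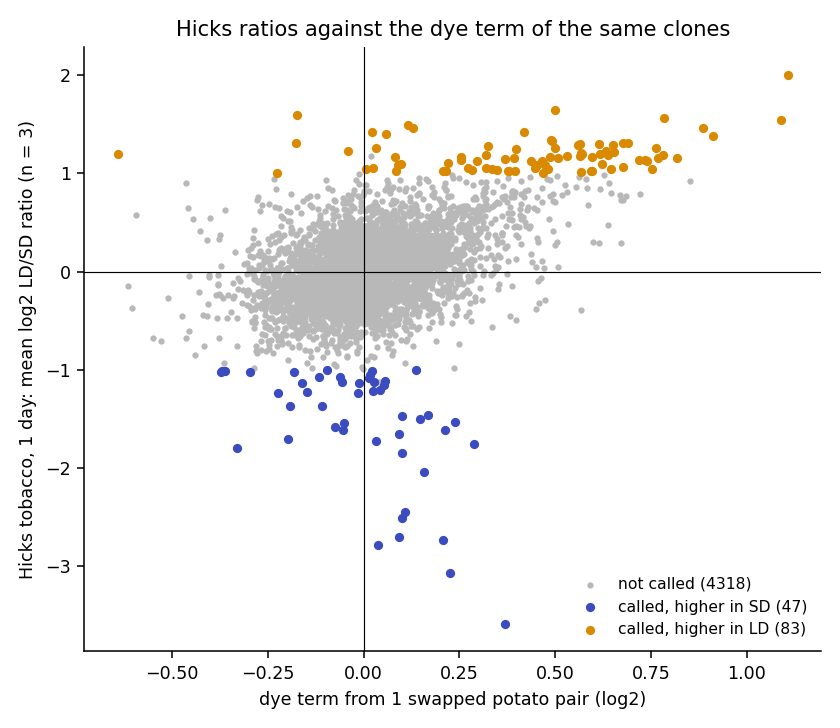
Mean log2 LD/SD ratio in Hicks after 1 short day (y axis) against the dye term of the same clone from 1 swapped pair of potato arrays (x axis, log2), for 4448 clones. The 83 LD-higher clones lie mostly to the right of 0, with a median term of 0.472, and the 47 SD-higher clones lie on both sides, with a median of 0.0205.

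The strongest response was the rise of clone 158627 in SD. Its log2 LD/SD ratios were -2.89, -3.84 and -4.06 on arrays 1 to 3, a mean of -3.59 ± 0.22 (SE; adjusted p = 0.000705). Clone 137151 had -2.29, -3.56 and -3.40, a mean of -3.08 ± 0.24 (adjusted p = 0.00107). Array 1 gave the weakest ratio for both, and all 3 arrays were far below 0. No gene symbol is given for either. Clones 133865 and 159592 followed with means of -2.79 and -2.74, and clones 143318, 134227 and 137702 with -2.71, -2.51 and -2.45. In these 5 clones array 3 had the lowest ratio, between -3 and -3.74, and array 1 the highest, between -1.81 and -2.18. The 2 clones of the locus LOC102585502 gave near-equal means of -2.36 and -2.35. Clone 134640 was the most even of the group, with -2.12, -1.92 and -2.10.

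Among genes with a name, the largest SD-higher ratio was that of STUGE51, which encodes a UDP-glucose epimerase, an enzyme that makes UDP-galactose for cell-wall polysaccharides. One of its clones (161624) had ratios of -1.69, -0.98 and -2.19 on arrays 1 to 3, a mean of -1.62 ± 0.22 (SE; adjusted p = 0.00415). The other (153358) had -1.74, -1.15 and -1.74, a mean of -1.54 ± 0.16 (adjusted p = 0.00200). Signal was about 3-fold higher in SD, 3.07-fold and 2.91-fold by clone, and array 2 was the weakest for both. These are the 2 tested clones of the cell wall list. Subtracting the dye term left them at -1.57 and -1.49. Smaller increases in SD passed the test in several enzymes and a receptor. With STUGE51 included, 10 of the 101 tested clones with a gene name passed higher in SD, near the 10.4% of all clones that did. PGAM, a phosphoglycerate mutase of glycolysis, had -0.76 (clone 132267; adjusted p = 0.0121), while its other clone had -0.13 and did not pass. ERS, an ethylene receptor, had -0.60, -0.88 and -0.41 on the arrays, a mean of -0.63 (adjusted p = 0.0286). Both clones of UCP, a mitochondrial uncoupling protein, passed at -0.51 and -0.48, and NDPK1, a nucleoside diphosphate kinase, passed at -0.50. CAT1, a catalase that breaks down hydrogen peroxide from photorespiration, passed in 1 clone at -0.49 (adjusted p = 0.0515) and missed the threshold in the other at -0.45 (adjusted p = 0.114). With the dye term subtracted the CAT1 clones were at -0.89 and -0.83, and both passed. FIN1 passed at -0.39 and GPI in 1 clone at -0.45, while its other clone had -0.51 with more spread and did not pass. The 8 clones of GAPDH, a glycolytic dehydrogenase, had means between -0.29 and 0.16, and none passed. The clones of PGAM, ERS, UCP, NDPK1, FIN1, GPI and GAPDH are given outside the naming rule described below. They were not run under the alternative settings.

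Among the gene lists, the one for phenolic metabolism had the most clones that passed on the LD side. Of the 6 tested clones of the shikimate, phenylpropanoid and flavonoid list, 4 passed higher in LD and none higher in SD, where 13.1% and 10.4% of all clones did, with a list median of 0.92 against -0.0048 over all clones. The list follows categories that the study drew from the same series, so its direction is not independent evidence. F3H, flavanone 3-hydroxylase of the flavonoid pathway, had ratios of 0.72, 1.21 and 1.76 on arrays 1 to 3, a mean of 1.23 ± 0.20 (SE; adjusted p = 0.00834), or 2.35-fold higher in LD. PPO, a polyphenol oxidase that turns phenols into quinones, had 0.84, 1.62 and 1.52 in clone 137880, a mean of 1.33 ± 0.18 (adjusted p = 0.00415). Its clone 150205 had 0.86, 0.78 and 1.23, a mean of 0.96 (adjusted p = 0.00668). All 9 of these ratios were above 0. SHKA, which catalyses the entry step of the shikimate pathway, had 0.45, 0.36 and 1.85, so that its mean of 0.88 (adjusted p = 0.0676) came largely from array 3 and was 0.40 without it. The 2 clones of FLS, flavonol synthase, had means of 0.12 and 0.38 and did not pass. Dye subtraction lowered PPO to 0.84 and 0.71 and left F3H at 1.27 and SHKA at 0.88, and these 4 clones still passed. RSI5 had the smallest spread of the 5 called clones with a gene name, with 1.31, 1.33 and 1.16, a mean of 1.27 ± 0.13 (adjusted p = 0.00200), and it was the only called clone with a gene name that also passed under the q-value (q = 0.0841).

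Photosynthetic genes had smaller ratios. PSBR, a small subunit of photosystem II, was tested in 4 clones, of which 2 passed higher in LD (13.1% of all clones did) and 2 did not pass, with means between -0.04 and 0.66. After dye subtraction only clone 150316 passed, and clone 136668, at 0.39 before, was at 0.31 (adjusted p = 0.168). Its highest clone (150316) had 0.89, 0.30 and 0.79, and its lowest had values on both sides of 0. Of 4 clones for carbon fixation and photorespiration, TK, a transketolase of the Calvin cycle, passed in 1 clone at 0.51 (adjusted p = 0.0451) and had -0.10 in the other. LPD2, a dihydrolipoamide dehydrogenase, passed at 0.49 (adjusted p = 0.0661), and SHMT, serine hydroxymethyltransferase, had 0.30 and did not pass. DHAR2, which regenerates ascorbate, passed in 1 of 2 clones at 0.63. METK1, the S-adenosylmethionine synthetase, passed higher in LD in 2 of 9 clones, at 0.58 and 0.40, beside 13.1% of all clones, and the 9 clones ranged from -0.35 to 0.58. The first of these was at 0.43 after dye subtraction and no longer passed (adjusted p = 0.126), and the second had no dye term. IAA2, an Aux/IAA protein of auxin signalling, had 0.97, 0.76 and 0.65, a mean of 0.79 ± 0.14 (adjusted p = 0.0108). With the dye term subtracted IAA2 was at 0.38 and no longer passed (adjusted p = 0.119).

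Starch genes gave no common direction. GBSS, granule-bound starch synthase, had -0.79, -0.29 and 1.27 on arrays 1 to 3, so that array 3 pointed to LD and the other arrays to SD, with a mean of 0.07 (adjusted p = 0.915). Likewise STP-1 was at -0.96 on array 1 but at 0.34 and 0.36 on arrays 2 and 3. The 2 clones of R1, the dikinase that phosphorylates starch, also had their lowest ratio on array 1, at -0.59 and -0.38, and means of -0.11 and 0.02. None of the 4 clones of this list passed. PKIN1, a kinase of the AMP-activated type, had a mean of -0.001. BEL5, a homeodomain factor known from potato tuberization, had -0.06, 0.15 and 0.53, a mean of 0.21 that did not pass. STWRKY8, a WRKY factor, and VPE2, a vacuolar processing enzyme, the tested members of the defence list, had means of -0.35 and -0.12 and did not pass. Of 128 genes or loci with 2 or more tested clones, 57 had a clone that passed, and in 0 of them did clones pass in both directions. Over all clones 23.5% passed, and a gene with more clones has more chances to hold a passing one. How often clones of a gene would pass in both directions without agreement was not worked out.

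**Figure D3:**
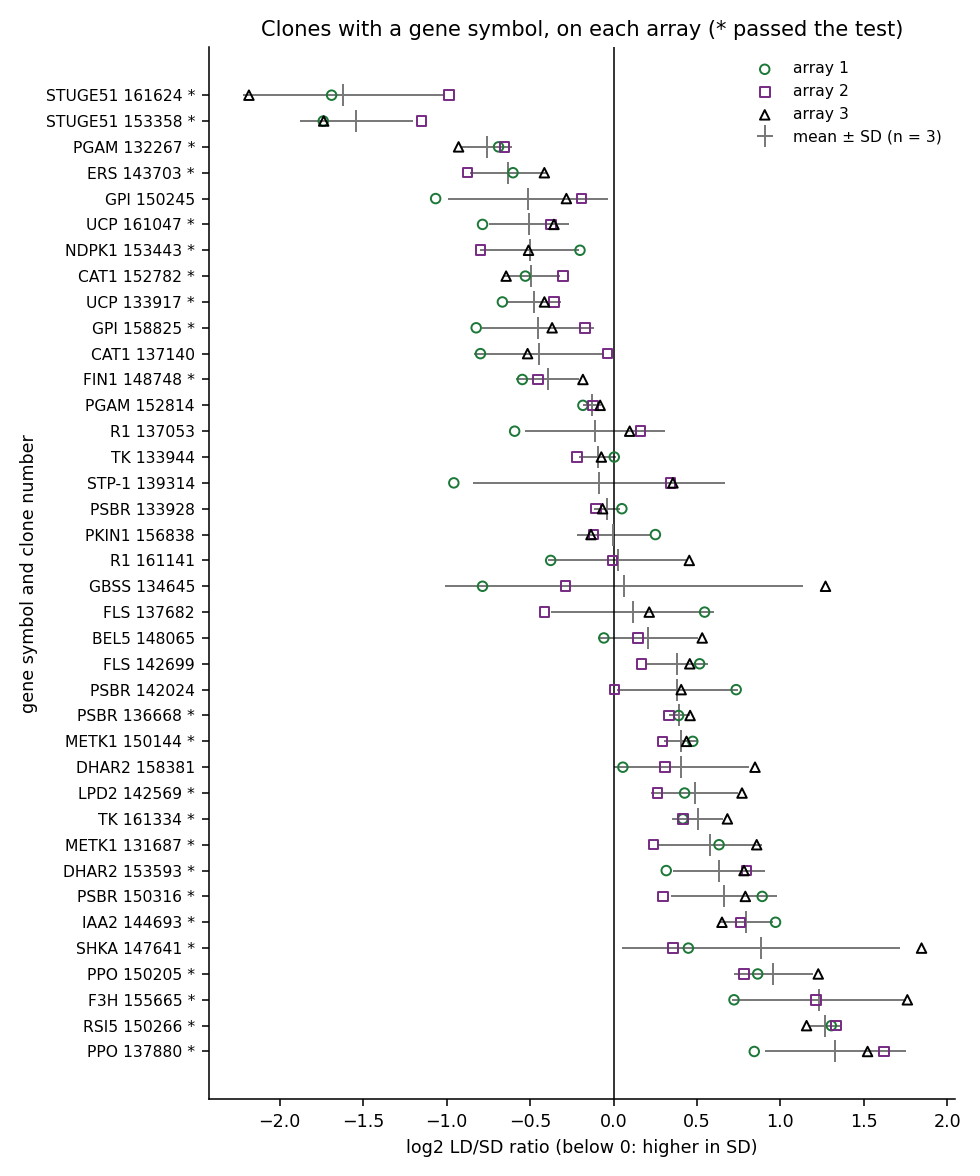
Log2 LD/SD ratio (x axis) of clones with a gene symbol (y axis, symbol and clone number) on arrays 1 to 3 of Hicks after 1 short day, with the mean and SD over the 3 arrays as a tick and a bar; of METK1 only the clones that passed are drawn. STUGE51 lies below 0 and F3H, PPO and RSI5 lie above 0 on all 3 arrays, whereas GBSS runs from -0.79 to 1.27.

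Some genes with a known part in flowering or sugar use were on the array but not tested in Hicks. The clone of CO, the symbol of CONSTANS, was 1 of 28 clones with a gene name that had a value on 0 of 3 arrays. STUGE45 had values on 2 arrays, -0.45 and 0.37. One clone of AMYA1, an alpha-amylase, and that of GA2OX1, which inactivates gibberellins, had a value on 1 array each, 2.23 and 0.86. One clone of PR1B, a pathogenesis-related protein, had -0.51, 0.54 and 0.24 but from different spots, and was not tested. GIGANTEA is not among the symbols of the annotation. A missing value gives no level.

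Clones without a gene symbol made up most of the LD side as well, as they did of all clones tested, of which 552 of 4569 had a symbol. Clone 137181 had 2.38, 1.96 and 1.68, a mean of 2.01 ± 0.16 (SE; adjusted p = 0.00108), and was at 0.90 after dye subtraction. Clones 140930, 162662, 142672 and 160939 had means of 1.69, 1.64, 1.57 and 1.55, with each array above 1. After dye subtraction 160939 was at 0.46 and did not pass (adjusted p = 0.162), 142672 was at 0.78 and so below the size limit, and 162662 was at 1.15. Clone 140930 had no dye term. Clones 148392, 136901 and 144970 rested on array 3, where they had 3.44, 2.88 and 3.36, against 0.25 to 1.01 on the other arrays. Without array 3 their means were 0.67, 0.80 and 0.52, and 144970 did not pass after dye subtraction (adjusted p = 0.132).

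How the first day stood to the later response of the same cultivar was asked with the 15-day arrays. The difference between day 1 and day 15 was tested for 3677 clones and called for 0 (0%), although 681 (18.5%) had an unadjusted p of at most 0.05 and the smallest adjusted p was 0.164. The methods' t-test called 1 under either adjustment. The median standard error of a difference was 0.25, and a p above the threshold does not show that the days were alike. This count hung on 1 array: without replicate 3 of day 15 it was 203, of which 141 had the higher LD/SD ratio on day 1 and 62 the lower. With every array scaled to the same spread it was 48. The mean ratios of the days correlated at r of 0.379 over these clones.

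The SD-higher clones kept their sign at 15 days. Of the 53, 43 were also tested on day 15, and all 43 had a mean below 0, against 46.1% of all clones, with a median of -0.90 on day 15 and of -1.24 on day 1. On the single arrays of day 15 their medians were -0.81, -0.67 and -1.45. Clone 158627 had -3.12, -2.79 and -4.08 at 15 days, overlapping its ratios on day 1. STUGE51 had day-15 means of -1.18 and -0.86, and neither passed the test of that day. Clones that were higher in LD on day 1 behaved less evenly. Of 76 tested at 15 days 46 had a mean above 0, against 53.9% of all clones, and their median was 0.05 on day 15 and 1.16 on day 1. Their medians on the day-15 arrays were 0.16, -0.84 and 0.77, so that array 2 had 58 of 80 clones below 0 and array 3 had 80 of 86 above 0. IAA2, for instance, had -0.20, -0.04 and 0.27 at 15 days, below each of its day-1 ratios, but the difference of 0.79 ± 0.22 (SE) did not pass (adjusted p = 0.164). LPD2 had 0.45, 0.65 and 0.58, within its range on day 1. The test of the day-15 mean called 24 of 3769 clones (0.637%), among them 8 of the SD-higher and 1 of the LD-higher clones.

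**Figure D4:**
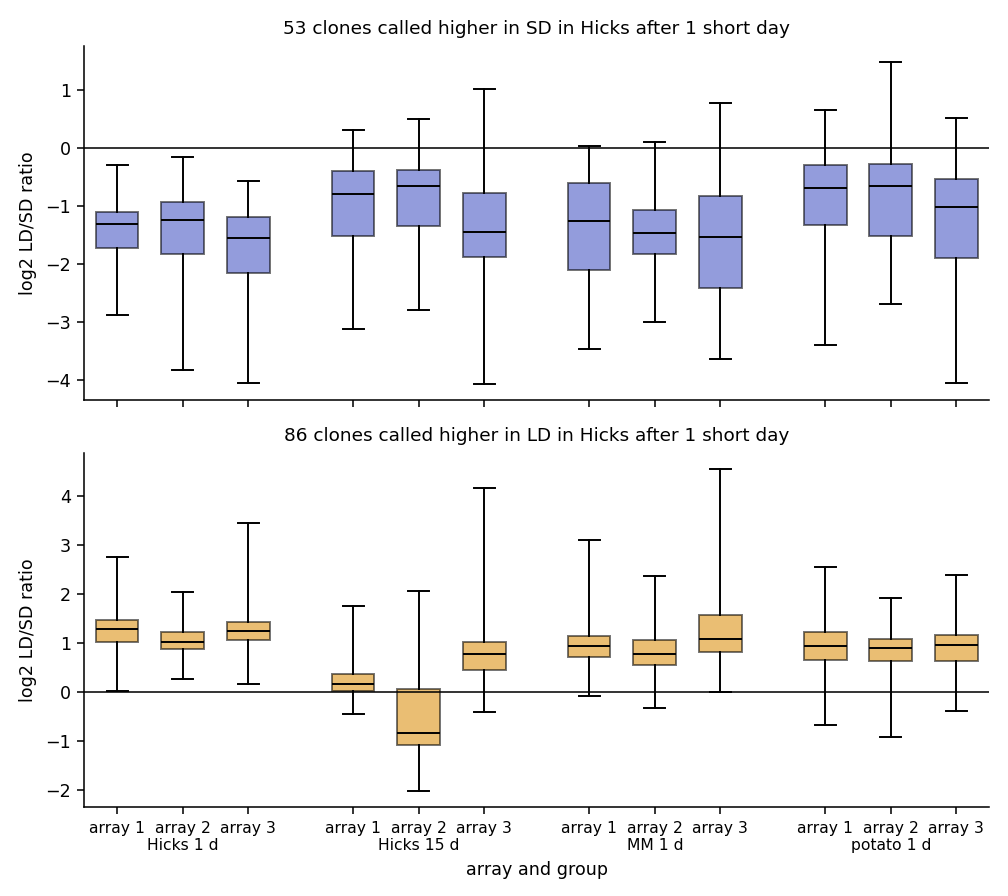
Log2 LD/SD ratios (y axis) of the 53 SD-higher clones (upper panel) and the 86 LD-higher clones (lower panel) of Hicks after 1 short day, on each of 12 arrays (x axis, by group). Boxes span the quartiles with the median as a line, and whiskers reach the lowest and highest clone. The arrays of Hicks 1 d chose the clones and have no overlap with 0. The LD-higher clones have medians of 0.16, -0.84 and 0.77 on the Hicks 15 d arrays and between 0.77 and 1.08 on those of MM.

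Whether the day-neutral cultivar differed from the short-day line on the same day was asked against MM. Of 3885 clones, the difference was called for 0 (0%), also under the methods' t-test, and 56 (1.44%) had an unadjusted p of at most 0.05. The median standard error was 0.27, again with an array that stood apart: without replicate 2 of MM 841 clones had an unadjusted p of at most 0.05, and the number called was still 0. All 50 SD-higher clones tested in MM had a mean below 0 there (48.4% of all clones had), with a median of -1.40 in MM against -1.32 in Hicks, and all 78 LD-higher clones had a mean above 0 (51.6% of all), with medians of 0.93 in MM and 1.16 in Hicks. These shared signs cannot be told apart from a shared dye effect, which was not tested. The dye term was above 0 in 78 of 83 LD-higher clones. STUGE51 had -1.62 and -1.54 in Hicks and -2.08 and -2.04 in MM. SHKA had 1.46, 0.78 and 2.46 in MM, and PPO (137880) had 1.65, 0.24 and 4.08, each wider than in Hicks. F3H and RSI5 had no test in MM. Only 5 of 3951 clones (0.127%) were called in MM on its own.

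More differences were called against potato, where the median standard error was 0.20, below that for day 15 and for MM. The median size of a difference was 0.22 for potato, 0.29 for day 15 and 0.19 for MM. The mean ratios of Hicks and potato correlated at r of 0.593, and those of Hicks and MM at 0.779. The counts of called clones therefore do not rank the groups by likeness to Hicks after 1 day. The Hicks ratio differed from the potato ratio of the same day for 130 of 4496 clones (2.89%), being higher in Hicks for 53 and lower for 77, and 901 (20%) had an unadjusted p of at most 0.05. Of the 130, 59 had opposite signs in Hicks and potato. Most of these, 35, were among 36 clones called in neither species on its own, with Hicks means between -0.94 and 0.93. The share of opposite signs over all clones was not counted. The methods' t-test called 43 under a q-value and 3 with Benjamini-Hochberg adjustment. Most of the differences lay in clones called in potato alone: 78 of the 130 were called in potato and not in Hicks, and their Hicks means lay between -0.98 and 0.91. Among the largest were clones 158263, 158286 and 151842, chosen after their values were seen, which had means of 3.01, 2.85 and 2.69 in potato but of 0.17, -0.01 and -0.12 in Hicks. Their Hicks ratios were 0.70, 0.03 and -0.22 for the first, 0.10, 0.01 and -0.15 for the second, and 0.38, -0.25 and -0.48 for the third, each highest on array 1.

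The reverse, a call in Hicks but not in potato, was found for 14 of the 130 clones, among them several of the strongest on the SD side. Clone 143318 had -2.16, -2.48 and -3.48 in Hicks, against 0.14, 1.48 and -0.09 in potato, a difference of -3.21 ± 0.42 (SE; adjusted p = 0.00406). Clone 137702 differed by -2.90 (adjusted p = 0.00446) and clone 134227 by -2.33 (adjusted p = 0.00525). The Hicks and potato ratios of these 3 clones did not overlap. They had been named for their low Hicks ratios and called for the difference, so the lack of overlap is no further support. The share of all clones without overlap was not counted. Clone 158627, 1 of 2 clones of the 130 that were called in both species, had a potato mean of -1.13 and differed by -2.46 ± 0.43 (adjusted p = 0.0130). In MM these clones were also below 0, where 143318 had -2.41 and 134227 had -2.23. By contrast, clones 133865 and 159592 had -2.79 and -2.74 in Hicks and -2.84 and -2.76 in potato, and the difference of the first was 0.05 ± 0.54 (SE). Whether potato and tobacco RNA bind a given clone equally well was not tested, nor was a part of petioles in the potato samples.

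For the named genes with the largest ratios no difference from potato passed. STUGE51 had -1.62 and -1.54 in Hicks and -2.0 and -1.93 in potato, F3H 1.23 and 1.33, RSI5 1.27 and 1.09, with adjusted p of 0.579 to 0.886 for the differences. SHKA had 0.88 in Hicks and -0.08 in potato, a difference of 0.96 ± 0.36 (SE) that did not pass (adjusted p = 0.176). In potato 45 of 49 SD-higher clones and 81 of 84 LD-higher clones kept their sign, where 50.4% and 49.6% of all clones had the same signs, and 21 and 31 of them were among the 239 of 4519 (5.29%) called in potato. As in MM, these shared signs cannot be told apart from a shared dye effect. A called difference from potato was found for 14 of the 53 SD-higher and 2 of the 86 LD-higher clones, not all of which were tested for it. Over all clones it was 130 of 4496 (2.89%). The SD-higher and LD-higher clones were chosen by the size of their Hicks ratios, which favours a called difference.

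**Figure D5:**
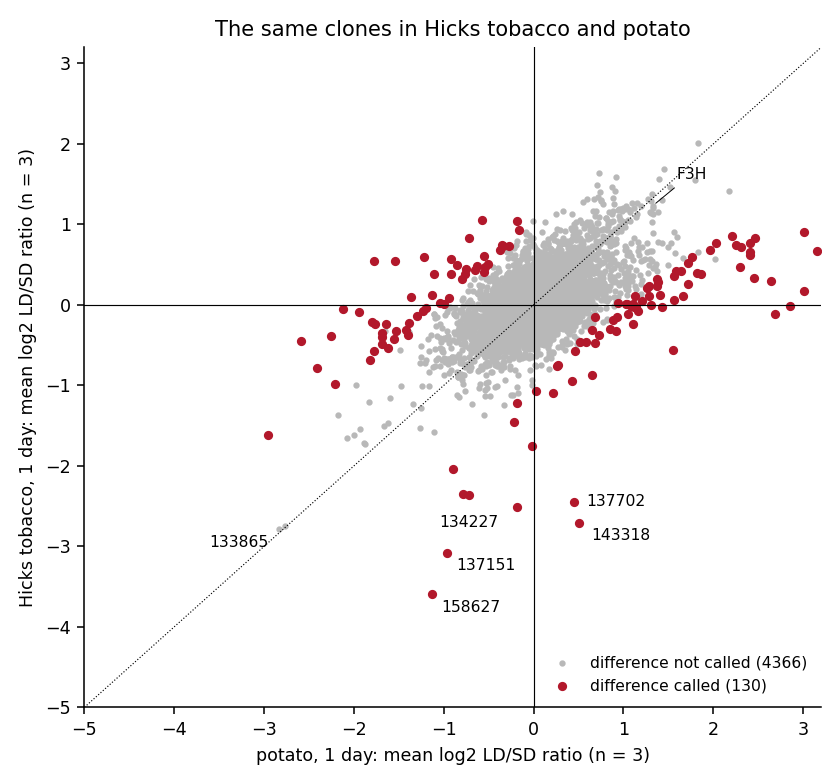
Mean log2 LD/SD ratio after 1 short day in Hicks (y axis) against potato (x axis) for 4496 clones, n = 3 arrays each, with clones of called difference in red and a dotted line of equal ratios. Clones 143318 and 137702 lie at -2.71 and -2.45 in Hicks and at 0.51 and 0.45 in potato, and 133865 lies on the line.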

How the data were processed

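RNA was extracted with Trizol from leaves, and for potato the methods also name petioles. The authors hybridized it in 2 colours to potato cDNA arrays. Their processing included LOWESS and the deposited values are log2 ratios (no intensities), with limma among the tools in the submitters' processing notes. Spots of a clone were paired by their positions on the array, which gave 15360 pairs. The 905 pairs given by the annotation were a check, and all were found among them. The spots of a pair were averaged, keeping spots with a value on all 3 arrays of each group. Means and differences were tested in R 4.3.3 by eBayes after lmFit of limma 3.58.1 and called at p of 0.05, adjusted p of 0.1 and size 1, the limits of the methods, and the methods' t-test was an alternative. Simulated data had 200 clones changed by 1.5 in size, with independent noise drawn from the fitted spreads. For the Hicks mean 199 were recovered, with 1 false call. For the differences from Hicks 15 days, MM and potato 189, 188 and 198 were recovered, with 7, 11 and 1 false calls. An array that stands apart, as in Hicks after 15 days and in MM, was not simulated. These counts therefore do not give the power of the tests on the real arrays. The number of arrays limits the precision.

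Names came from a probe annotation with 1630 probes of 1 symbol and 180 of several, which were not named. Named clones were up to 10 called per direction by size, up to 30 with a symbol, up to 4 of each list and the genes the study names. Tested clones given outside this rule are said to be. The ribosomal list had no clone, and lists were matched by symbol only. Members and lists were chosen with earlier results of these data known. The replicate numbers were not taken as pairs.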

Additional observations from a re-analysis of the deposited data

Results flagged for a closer look

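The difference between Hicks and potato after 1 short day was called for 130 clones by limma's test of the difference. Of the clones named by rule, the test called clones 158627 (-2.46), 137151 (-2.11), 143318 (-3.21), 134227 (-2.33), 137702 (-2.90) and 134640 (-1.15), and both clones of LOC102585502 (159334 at -1.53 and 159438 at -1.85). All 8 had the lower LD/SD ratio in Hicks, but they had been named for their low Hicks ratios, which favours this direction. Of all 130 clones, the ratio was lower in Hicks for 77 and higher for 53.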

How the results depend on the processing

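Of 1021 values for 74 named clones under the alternatives, 847 kept their side of the threshold and 166 no longer passed. Another 5 newly passed and 3 moved. A reversal was counted only for the 56 clones that passed in the main test, and 0 of their values reversed. Some clones that did not pass changed sign, such as GBSS, between -0.54 and 0.49, and STP-1, between -0.31 and 0.35. Most of the losses came from the methods' t-test. Of the 56 named clones that passed in the main test, 56 no longer passed with Benjamini-Hochberg adjustment and 53 with a q-value. Several settings, such as the t-test, leave the mean as it is, so that no sign could reverse there. The 139 calls became 1074 without a size limit, 2 and 30 with the methods' t-test (Benjamini-Hochberg and q-value), 66 with the dye term subtracted and 253 with spots tested one by one; other settings gave 119 to 163, and leaving out 1 replicate 142 to 170. The day 1 minus day 15 count of 0 became 1 with the methods' t-test under either adjustment and 48 with scaled arrays, and 0 to 203 without 1 replicate, 203 being without replicate 3 of day 15. The MM count was 0 throughout. The potato count of 130 became 355 without a size limit, and 3 and 43 with the methods' t-test, and was 109 to 152 without 1 replicate. With the replicate number as a block the counts were 0 for day 15, 0 for MM and 124 for potato. Same-numbered arrays deviated together at r of -0.066 to 0.322 (day 15), -0.089 to 0.384 (MM) and -0.227 to -0.044 (potato), so the numbers were not taken as pairs.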

Other observations

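Array 3 of Hicks after 1 short day had its highest correlation with tobacco arrays of other groups at r of 0.683 (MM after 15 days, replicate 3; 4150 clones), above its r with the other Hicks arrays of the same day. Array 1 had 0.625 with replicate 2 of MM after 1 day (4477 clones), the array that stood apart in MM, and array 2 had its highest outside the group, 0.590, with replicate 3 of MM after 15 days (4150 clones). The correlations are across clones of single arrays, and clones are not replicates.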
